A study of Mus musculus with 12 samples.

Results

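The Snora family of H/ACA box small nucleolar RNAs (snoRNAs) was examined in small RNA libraries from mouse medulloblastoma cells. Members were taken as every transcript whose symbol starts with Snora, whatever its level. This gave 36 of the 4044 transcripts left once identical repeated rows were counted once. Of these, 33 had a count in at least 1 library, and Snora15, Snora2b and Snora35 were at 0 in all 12.

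The cells are labelled stem-like medulloblastoma cells from cerebellum, with the genotype Math1-Cre; SmoM2, which all 12 libraries share. SmoM2 is an activated form of Smoothened, the signal transducer of the Hedgehog pathway, and Math1-Cre drives its expression in cells of the cerebellar granule lineage. Each group held 4 libraries, and the design text names CRISPR. Control libraries are labelled WT and carried 1 guide, sgGal4-4, against a yeast factor that mice lack. Libraries labelled Miat knockdown carried sgMiat-6 (6-1 and 6-2) or sgMiat-96 (96-1 and 96-2), against the long non-coding RNA Miat. Libraries labelled Mtdh knockdown carried sgMtdh-1 (1-1 and 1-2) or sgMtdh-2 (2-1 and 2-2), against the gene of metadherin. Whether the libraries of a guide came from separate cultures is not in the labels, so that p-values here reflect a library-to-library spread that may be technical. In such bulk samples, fewer cells that make an RNA and less of that RNA per cell cannot be told apart.

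H/ACA snoRNAs fold into a pair of hairpins joined by a hinge, the H box, and followed by a short tail with the triplet ACA near the 3′ end. Together with dyskerin, Nop10, Nhp2 and Gar1 they convert chosen uridines of ribosomal RNA to pseudouridine, and unpaired loops inside the hairpins select the site by base pairing. Most are cut out of the introns of other genes, often genes of ribosomal proteins and translation factors, so that their supply follows transcription and splicing of the host and then the stability of the particle. Translation and ribosome production are high in dividing neural progenitors and in the tumours that arise from them.

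The 5 sequences below show Snora81 and Snora7a, the members whose changes passed the test, beside 3 other tested members for comparison. They are GENCODE M21 transcripts limited to the RefSeq span on GRCm38, written 5′ to 3′ as DNA. Capitals mark each H box match (ANANNA between the 40% and 65% points of the length, overlapping matches joined) and an ACA ending 2 to 4 bases before the 3′ end. Only the given strand was searched.
Snora81 (chr16:23110770-23110933, plus strand): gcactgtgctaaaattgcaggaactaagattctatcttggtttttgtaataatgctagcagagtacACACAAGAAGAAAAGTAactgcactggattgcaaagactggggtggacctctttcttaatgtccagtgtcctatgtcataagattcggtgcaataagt
Snora7a (chr6:115807975-115808103, minus strand): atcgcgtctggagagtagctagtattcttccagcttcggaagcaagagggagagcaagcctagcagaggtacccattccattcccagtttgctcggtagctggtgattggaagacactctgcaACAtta
Snora31 (chr14:75847923-75848034, plus strand): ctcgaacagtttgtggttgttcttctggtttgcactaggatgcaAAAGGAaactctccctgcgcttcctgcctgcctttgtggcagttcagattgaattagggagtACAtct
Snora70 (chrX:74272492-74272620, plus strand): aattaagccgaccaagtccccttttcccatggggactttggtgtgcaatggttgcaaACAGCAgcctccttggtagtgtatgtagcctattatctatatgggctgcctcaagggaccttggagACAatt
Snora75 (chr1:86351170-86351285, minus strand): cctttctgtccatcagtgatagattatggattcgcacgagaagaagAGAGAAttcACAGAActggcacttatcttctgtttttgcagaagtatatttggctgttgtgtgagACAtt
Snora81, the longest of the 5 at 164 bases, has 5 overlapping hinge matches and reads ATA where the others have ACA near the end. Snora7a has the tail triplet with no hinge match in the window. Over the whole family 31 of 36 sequences (86.1%) held the tail ACA and 21 (58.3%) a hinge match, with both in 19. Among 71 C/D box snoRNAs of the Snord family, the other large class, 2 (2.82%) held such an ACA and 18 (25.4%) a hinge match, and 0 held both. The sequences ran from 56 to 196 bases, with a median of 119. Members were distinct from each other, since the closest pair, Snora2b and Snora34, was 66.9% identical.

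Depth limited what could be measured. Libraries held 22785 to 161038 counts, and most lay on Rn45s, the 45S ribosomal RNA precursor: 53.8% to 56.2% in controls, 71.2% to 83.9% with Miat guides and 66.0% to 78.1% in Mtdh libraries. Levels are therefore given as counts per 10000 counts outside Rn45s, on which scale 3 counts, the limit that a count of 0 allows, stand for 0.691 to 4.16. Such limits cover counting error only. Miat was counted 0, 1, 1 and 1 times in controls, 49 and 30 times with sgMiat-6 and 1 and 0 times with sgMiat-96, so the sgMiat-6 counts run against the label and the groups are called by their labels. Small fragments of a long RNA do not measure its depletion, and Mtdh, which encodes a protein, is not analysed here. Of 6 precursors of neural miRNAs, the 3 of Mir9 had counts, with a summed level of 29.9 to 41.6 per 10000 in controls, 15.2 to 31.5 with Miat guides and 1.39 to 18.7 in Mtdh libraries. The 3 precursors of Mir124a were at 0. Marker miRNAs of oligodendrocytes, blood and immune cells, endothelium and mesenchyme reached at most 4.48 per 10000 in any library, and their part in the results was not tested.

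The H/ACA family held a larger share of the counts outside Rn45s in every library with a Miat guide than in any control. The share was 1.29%, 1.26%, 1.20% and 1.14% in the controls. It was 1.60% and 1.74% with sgMiat-6, and 2.85% and 4.69% with sgMiat-96. With Mtdh guides it was 1.22%, 0.925%, 0.434% and 1.59%, on both sides of the controls. The means were 1.22% ± 0.0671, 2.72% ± 1.43 and 1.04% ± 0.49 (SD, n = 4 each). The Miat libraries had p = 0.0286 against control in a two-sided exact permutation test, the lowest p that 4 libraries against 4 allow, and 0.0857 after adjustment over 6 share tests, so the difference did not pass 0.05. Mtdh against control gave p = 0.6 (adjusted 0.6), and Mtdh against Miat p = 0.0286 (adjusted 0.0857), by the same exact permutation test.

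The Miat difference in the share turned on Snora81. With Snora81 left out, the Miat guides lay on opposite sides of the controls. With Snora7a left out as well, sgMiat-6 was no longer below them. Without Snora81 the Miat mean lay 0.00694 percentage points above the control (exact permutation p = 0.971). That mean joined 0.631% and 0.817% with sgMiat-6, both below the controls at 0.911% to 1.12%, to 1.51% and 1.23% with sgMiat-96, both above them. Without Snora81 and Snora7a the Miat mean lay 0.226 points above the control (exact permutation p = 0.0571). The sgMiat-6 libraries were then at 0.578% and 0.717% and the sgMiat-96 libraries at 0.846% and 0.896%, against 0.422% to 0.602% in controls. As means of 4 libraries, Snora81 held 15% of Snora counts in controls, 58.6% with Miat guides and 15.8% in the Mtdh libraries. Snora7a held 41.6%, 9.87% and 17.5%. The choice of denominator matters as well. Of all counts, Rn45s included, the family held 0.548% ± 0.0332 in controls, 0.625% ± 0.194 with Miat guides and 0.312% ± 0.195 in Mtdh libraries (SD, n = 4). None of those 3 comparisons passed the exact permutation test (p = 0.457, 0.0571 and 0.114, and 0.549, 0.114 and 0.171 after adjustment, for Miat and Mtdh against control and Mtdh against Miat).

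**Figure D1:**
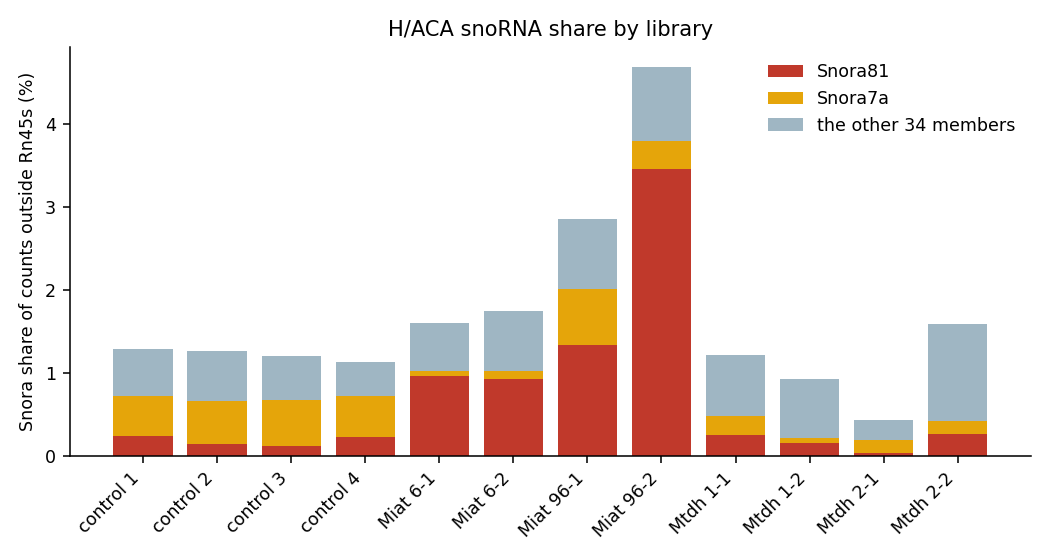
Share of counts outside Rn45s that lay on H/ACA snoRNAs (y axis, %), 1 bar per library, split into Snora81, Snora7a and the other 34 members. The control bars sit between 1.14% and 1.29%, and the Snora81 part is largest in the 4 Miat bars.

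Snora81 rose in the libraries with Miat guides. It lies in an intron of Eif4a2, the gene of a translation initiation helicase, in all 5 basic transcripts that contain it. It was counted 35, 31, 24 and 64 times in the controls. The Miat libraries had 421 and 308 counts (sgMiat-6) and 319 and 464 (sgMiat-96). The Mtdh libraries had 18 and 57 counts (sgMtdh-1) and 13 and 30 (sgMtdh-2). Per 10000 counts outside Rn45s that was 12.3 to 23.6 in controls, 92.8 to 346 with Miat guides and 4.00 to 26.7 in Mtdh libraries. Every Miat library was above every other library, while Mtdh and control libraries overlapped. Means were 18.2 ± 5.77, 168 ± 121 and 17.8 ± 10.4 (SD, n = 4).

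In edgeR's quasi-likelihood fit over all 147 transcripts with enough counts, Snora81 was 8.61-fold higher with Miat guides than in controls (log2 3.11, SE 0.56, adjusted p = 0.00169). The log2 difference was 2.17 with library totals in place of TMM scaling (edgeR adjusted p = 0.00772) and 2.31 without the sgMiat-96 libraries (0.00221). It was 8.76-fold lower with Mtdh than with Miat guides (log2 -3.13, SE 0.57, edgeR adjusted p = 0.00362). Mtdh against control gave log2 -0.03 (SE 0.54, edgeR adjusted p = 0.968). Snora81 was higher than in controls with each Miat guide: log2 2.46 (SE 0.52, edgeR adjusted p = 0.00342) with sgMiat-6 and 3.56 (SE 0.53, edgeR adjusted p = 0.000139) with sgMiat-96. Without library Miat 96-2, which stood apart at 346 per 10000, the sgMiat-96 value was 2.80 (edgeR adjusted p = 0.00189). The guides differed by 1.10 (SE 0.61, edgeR adjusted p = 0.227), which did not pass. The Rn45s share was lower in all controls than in any other library, and with it as a covariate the Miat difference was 2.74 (SE 1.24, edgeR adjusted p = 0.682) and 0 of the 147 transcripts passed in either direction. An RNA annotated as Gm22519 on chromosome 15 is 98.8% identical to Snora81 and is not among the transcripts used here, so reads that map to both are uncertain.

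A second snoRNA of the same host did not pass the test. Snord2, a C/D box snoRNA also within Eif4a2, was at 45.9 ± 6.77 per 10000 in controls, 32.9 ± 7.01 with Miat guides and 28.1 ± 18.6 in Mtdh libraries (SD, n = 4). Its log2 differences from control were -0.47 (SE 0.46, edgeR adjusted p = 0.557) and -0.65 (SE 0.46, edgeR adjusted p = 0.398). Miat libraries 6-2, 96-1 and 96-2, at 24.0 to 35.1, were below all controls, and 6-1, at 40.7, was not. A non-coding entry of Eif4a2 itself had 39 counts over all libraries, too few to test. The difference between the changes of Snora81 and Snord2 was not tested.

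**Figure D2:**
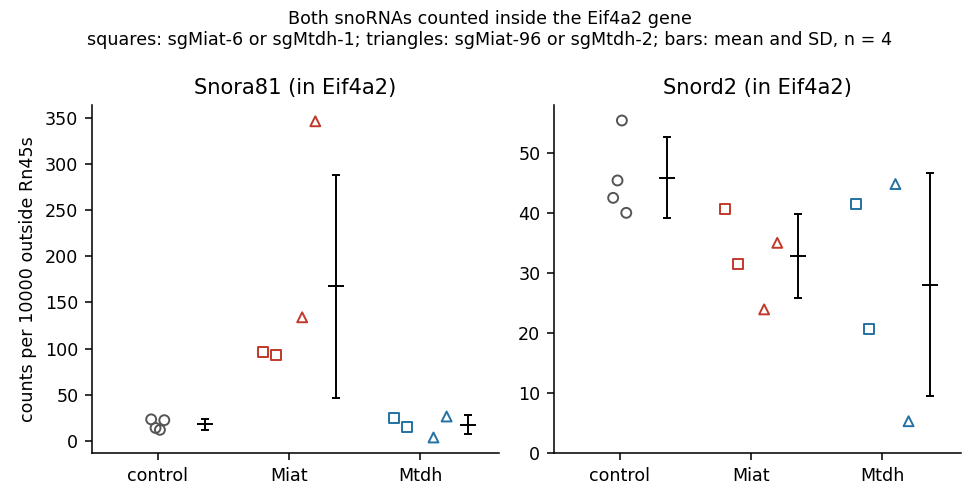
Counts per 10000 counts outside Rn45s (y axes, linear, different scales) of the 2 snoRNAs of Eif4a2 by group, 1 point per library, with mean and SD. Snora81 reaches 92.8 to 346 with Miat guides against 12.3 to 23.6 in controls, while Snord2 stays between 24.0 and 40.7 with Miat guides.

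Snora7a fell with 3 of the 4 guides. It lies on the minus strand within Rpl32, a gene of the large ribosomal subunit, intronic in 1 basic transcript and exonic in another. It was counted 71, 112, 106 and 138 times in controls. Counts were 23 and 33 with sgMiat-6 and 158 and 45 with sgMiat-96. The sgMtdh-1 libraries had 17 and 24 counts, the sgMtdh-2 libraries 48 and 17. On the scale of counts per 10000 outside Rn45s, controls were close together at 48.0 to 54.5. The 4 Mtdh libraries, at 6.53 to 23.6, were all below them, and so were the sgMiat-6 libraries at 5.29 and 9.94. The sgMiat-96 libraries fell on both sides, at 66.5 and 33.6.

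In the fit with 1 term per guide, Snora7a changed by log2 -2.64 with sgMiat-6 (SE 0.48, edgeR adjusted p = 0.00109). It changed by -2.02 with sgMtdh-1 (SE 0.50, edgeR adjusted p = 0.0133) and by -1.57 with sgMtdh-2 (SE 0.47, edgeR adjusted p = 0.0341). With sgMiat-96 it was at -0.11 (SE 0.41, edgeR adjusted p = 0.837), and the sgMiat-96 libraries were above the sgMiat-6 libraries by 2.53 (SE 0.52, edgeR adjusted p = 0.00248). The guides of Mtdh differed by 0.44 (SE 0.56, edgeR adjusted p = 0.788). With the guides of a target pooled, the group fit gave -1.72 for Mtdh (SE 0.60, edgeR adjusted p = 0.089) and -0.90 for Miat (SE 0.58, edgeR adjusted p = 0.364), and neither passed. Without library Miat 96-1 both pooled differences passed, at -2.02 (edgeR adjusted p = 0.0183) and -1.88 (0.0375), and without Miat 6-1 the Mtdh one did, at -1.75 (0.0298). The sgMtdh-1 call was lost without Mtdh 1-2 (log2 -1.18, edgeR adjusted p = 0.121), and without Mtdh 1-1 the value was -3.0 (0.00155). That of sgMtdh-2 was lost without control 4, Mtdh 2-1 or Mtdh 2-2 (edgeR adjusted p = 0.0752, 0.0926 and 0.0968). The difference between the Miat guides was 2.15 without Miat 6-1 (edgeR adjusted p = 0.0522).

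**Figure D3:**
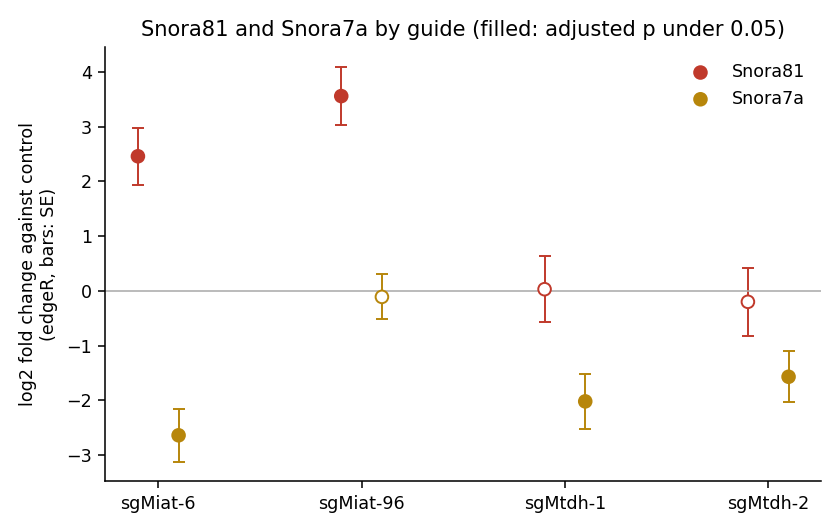
Log2 fold change against the 4 controls (y axis, edgeR, bars are SE) of Snora81 and Snora7a for each guide, 2 libraries per guide. Filled points passed an adjusted p of 0.05: Snora81 is at 2.46 and 3.56 with the Miat guides and near 0 with the Mtdh guides, and Snora7a is at -2.64, -2.02 and -1.57 for the 3 guides that passed.

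The other 6 tested members did not pass in any of the 3 group comparisons. Snora62 (also called E2) lies in an intron of Rpsa, a gene of the small ribosomal subunit. It stood at 9.46, 2.76, 5.14 and 8.51 counts per 10000 outside Rn45s in the controls and at 16.1, 15.7, 19.4 and 15.7 with Miat guides, so all 4 Miat libraries were above all controls. With Mtdh guides it was at 8.32, 14.2, 2.15 and 18.7, on both sides of the controls. The Miat difference of log2 1.34 (SE 0.55) had an unadjusted p of 0.0276 and an edgeR adjusted p of 0.134, and Mtdh gave 0.80 (SE 0.57, edgeR adjusted p = 0.398).

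Snora75, the U23 snoRNA, lies in an intron of Ncl, the gene of the nucleolar protein nucleolin. Its levels per 10000 outside Rn45s were 2.70, 3.22, 7.71 and 3.19 in controls, then 0, 0.904, 1.68 and 3.73 with Miat guides and 12.5, 1.91, 0.308 and 14.3 with Mtdh guides. The Mtdh libraries split into a high and a low one for each guide. The high ones, 1-1 and 2-2, had 7208 and 11225 counts outside Rn45s. The low ones, 1-2 and 2-1, had 36738 and 32513, and the part of depth was not tested. The differences of Snora75 were log2 -1.68 for Miat (SE 1.04, edgeR adjusted p = 0.358), 0.70 for Mtdh (SE 0.97, edgeR adjusted p = 0.639) and 2.38 for Mtdh against Miat (SE 1.07, edgeR adjusted p = 0.21). Its 80 counts over all libraries were the fewest of any tested member, and the RNA annotated as Gm22972 on chromosome 8 is 95.7% identical to it. Snord82, a C/D box snoRNA of the same host, was at 83.9 ± 4.15, 126 ± 30.3 and 63.9 ± 40.1 per 10000 (SD, n = 4), with edgeR adjusted p of 0.364 and 0.575 against control.

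Snora70, the U70 snoRNA, lies in an intron of the ribosomal protein gene Rpl10. It was at 9.46, 5.52, 4.11 and 5.67 counts per 10000 outside Rn45s in controls, 3.91, 5.12, 10.9 and 11.2 with Miat guides and 0, 5.99, 4.00 and 1.78 with Mtdh guides. The sgMiat-96 libraries were the highest and the groups overlapped, with log2 0.25 for Miat (SE 0.58, edgeR adjusted p = 0.827) and -0.75 for Mtdh (SE 0.61, edgeR adjusted p = 0.451).

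Snora31 lies in an intron of Tpt1, the gene of the translationally controlled tumour protein. Its levels per 10000 outside Rn45s were 9.46, 11, 12.3 and 9.57 in controls, 3.91, 7.53, 13.5 and 13.4 with Miat guides and 13.9, 4.36, 4.00 and 13.4 with Mtdh guides. Controls sat between the high and the low libraries of the other groups, and the log2 differences were -0.21 (SE 0.49, edgeR adjusted p = 0.827) and -0.27 (SE 0.51, edgeR adjusted p = 0.72). Among Mtdh libraries the high ones were again 1-1 and 2-2, those with fewer counts outside Rn45s.

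Snora74a, the U19 snoRNA, lies in an intron of the annotated non-coding gene AC121821.1. It stood at 4.05, 9.19, 4.11 and 3.19 per 10000 in controls, 6.68, 6.33, 4.21 and 11.9 with Miat guides and 8.32, 9.80, 3.08 and 7.13 with Mtdh guides. The groups overlapped, with log2 0.46 (SE 0.50, edgeR adjusted p = 0.605) and 0.51 (SE 0.52, edgeR adjusted p = 0.531). Snora16a, from the snoRNA host gene Snhg12, was at 4.05, 5.06, 4.11 and 1.06 in controls and at 3.22, 3.62, 5.05 and 4.48 with Miat guides. It was at 8.32 and 7.89 with sgMtdh-1 and at 2.46 and 0.891 with sgMtdh-2. Its log2 differences from control were 0.21 for Miat (SE 0.63, edgeR adjusted p = 0.841) and 0.50 for Mtdh (SE 0.64, edgeR adjusted p = 0.614), and the Mtdh guides differed by -1.85 (SE 0.80, unadjusted p 0.0355, edgeR adjusted p = 0.341).

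**Figure D4:**
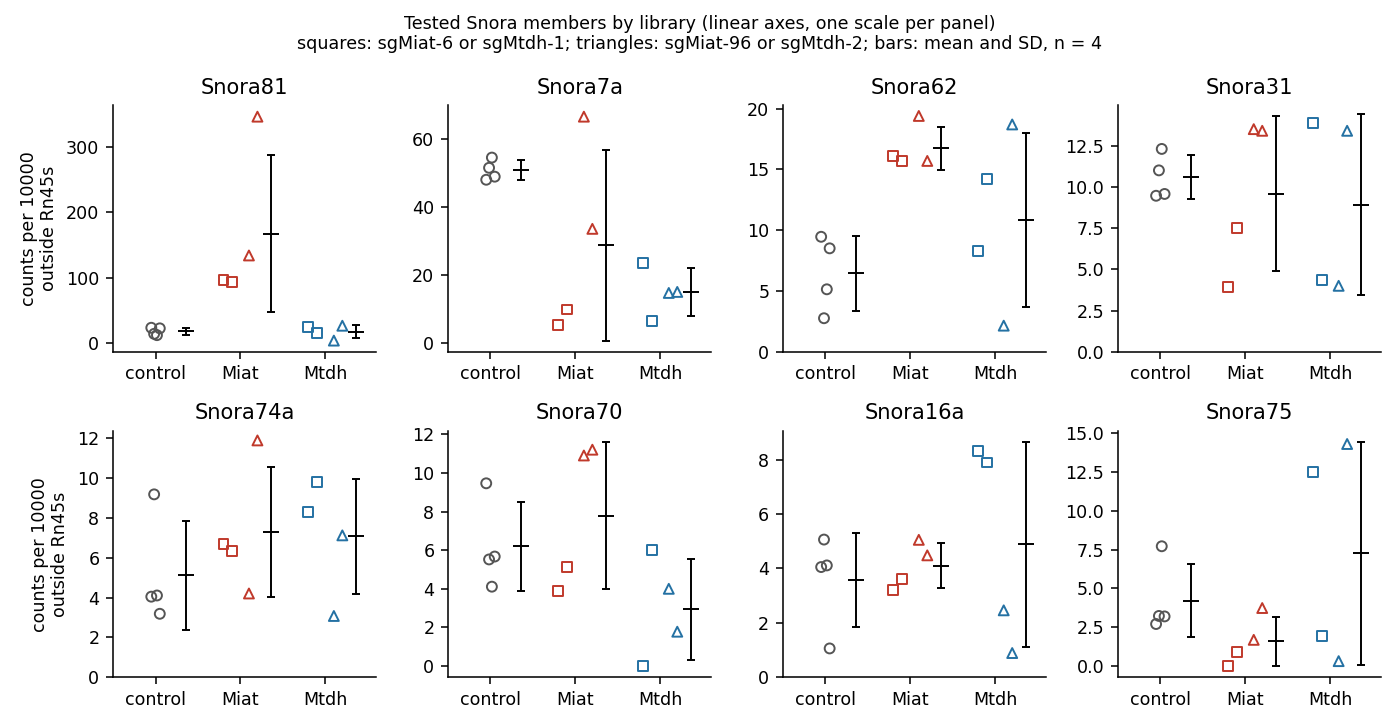
Counts per 10000 counts outside Rn45s (y axes, linear, a scale for each panel) of the 8 tested members by group, 1 point per library, shape by guide, with mean and SD. Snora81 and Snora62 show every Miat library above every control, and Snora7a every Mtdh library below every control.

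Levels were also divided by transcript length. Whether counts grow with length in these small RNA libraries was not tested, so the order of members is a description only. Per kilobase of transcript, Snora7a was first in controls with 393 ± 22.6 counts per 10000 outside Rn45s per kilobase (SD, n = 4). Snora81 (111 ± 35.2) and Snora31 (94.6 ± 12.1) came next and overlapped. Snora62 (50.5 ± 24.1) and Snora70 (48.0 ± 17.7) followed. With Miat guides Snora81 was first, at 1020 ± 735 per kilobase, followed by Snora7a at 223 ± 217 and Snora62 at 130 ± 13.9. The latter pair overlapped, since Snora7a ranged from 41.0 to 515 per kilobase and Snora62 from 122 to 151. With Mtdh guides Snora7a (116 ± 54.0) and Snora81 (109 ± 63.6) overlapped.

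Counted over the tested members, 1 of 8 was higher and 0 lower with Miat guides at an edgeR adjusted p under 0.05, where 12.9% of all 147 tested transcripts passed (10.2% higher and 2.72% lower). With Mtdh guides 0 of 8 passed, against 10.9% of all (8.16% higher and 2.72% lower). There 1 of 8, Snora7a, had an unadjusted p under 0.05, and DESeq2 also called 0. Between Mtdh and Miat guides 1 of 8 was lower and 0 higher, against 4.08% of all (2.72% lower and 1.36% higher). Members whose libraries did not overlap with controls numbered 2 higher and 0 lower with Miat guides (12.9% and 10.2% of all transcripts). With Mtdh guides 0 did so above the controls and 1 below (10.2% and 12.9% of all). Between Mtdh and Miat libraries 0 did so above and 1, Snora81, below (3.4% and 5.44% of all). The median log2 change of the 8 was 0.23 for Miat and 0.24 for Mtdh, beside 0.18 and 0.01 over all 147. With 8 members tested, these counts do not set the family apart from all transcripts.

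By guide, 1 member was higher and 1 lower with sgMiat-6, where 26.5% of all transcripts passed (15% higher and 11.6% lower). With sgMiat-96, 1 was higher and 0 lower, against 19% of all (11.6% higher and 7.48% lower). With sgMtdh-1, 0 were higher and 1 lower, against 10.9% of all (7.48% higher and 3.4% lower). With sgMtdh-2, 0 were higher and 1 lower, against 18.4% of all (12.9% higher and 5.44% lower). Between the Miat guides 7 of 8 members had a positive log2 difference of sgMiat-96 over sgMiat-6, with a median of 1.05 against 0.06 over all transcripts, and 1, Snora7a, passed, against 23.8% of all (12.9% higher and 10.9% lower). Each of the 8 had its highest Miat level in a sgMiat-96 library, 4 in 96-1 and 4 in 96-2. Among Mtdh libraries, 2-1 had the lowest level of 5 of the 8 members. How many of all tested transcripts followed either order was not counted, so these orders do not set the family apart. Between the Mtdh guides 0 members and 0% of all transcripts passed with edgeR, and 1 member, Snora16a, had an unadjusted p under 0.05.

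**Figure D5:**
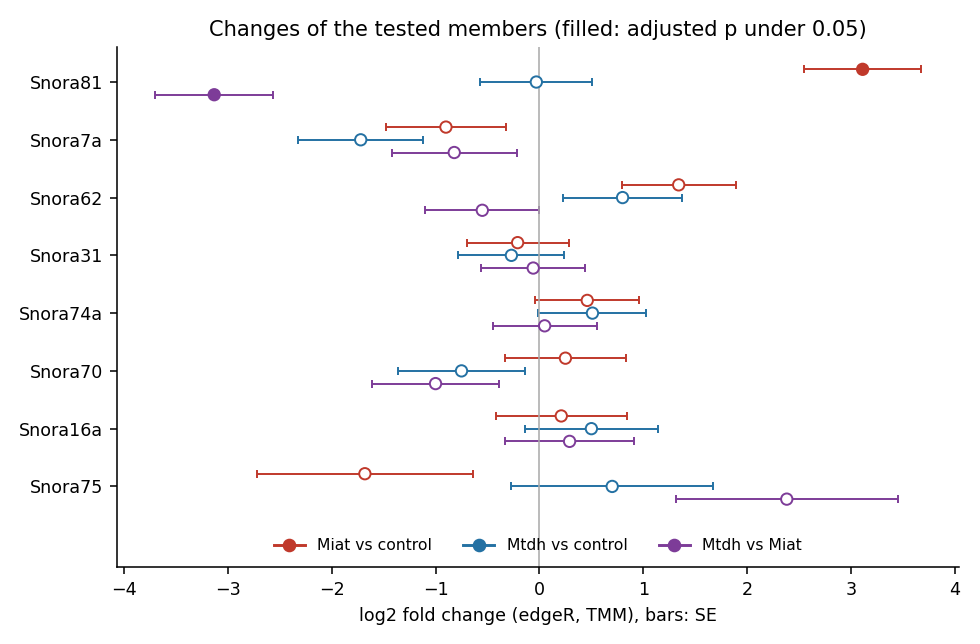
Log2 fold change (x axis, edgeR, bars are SE) of the 8 tested members for Miat against control, Mtdh against control and Mtdh against Miat. Only the 2 Snora81 comparisons that involve Miat, at 3.11 and -3.13, are filled, the mark of an adjusted p under 0.05.

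The 28 members too low to test held the remaining counts. The 8 tested members took 84.5% of the 4349 Snora counts, and 25 others had 1 to 88 counts each. Summed, the 28 stood at 17.2 ± 5.17 per 10000 in controls, 28.9 ± 3.6 with Miat guides and 29.7 ± 22.5 in Mtdh libraries (SD, n = 4). Each Miat library, at 23.9 to 32.5, was above each control, at 11 to 23.4. The gap between Miat 6-1 and control 2 was narrow and rested on Snora23, described next, which gave 2.07 in Miat 6-1 and 0 in control 2. Without Snora23, Miat 6-1 would be below control 2. Mtdh libraries ran from 8.61 to 61.5 and overlapped with both.

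Snora23 stands out among these by its zeros and was chosen after its values were seen. It lies in an intron of Ipo7, the gene of a nuclear import receptor for ribosomal proteins. It was counted 0 times in each of the 4 controls, 9, 7, 9 and 5 times with Miat guides and 3, 9, 4 and 7 times in Mtdh libraries. A limit of 3 counts over the control group is 0.356 per 10000. The observed rate was 7.40-fold above that limit with Miat guides and 7.36-fold above it in Mtdh libraries. The counting error of the observed rate is not in these folds. Because it was chosen for this pattern, no test is given. Snora41, from an intron of the elongation factor gene Eef1b2, is likewise named for its zeros in controls. It had 12 counts over the 4 Mtdh libraries, an observed rate 3.84-fold above the same limit. How many other low transcripts show such zeros was not counted. Snora26, within Dancr, was counted 4, 3, 3 and 6 times in controls and 31, 9, 14 and 4 times with Miat guides, which is 1.38 to 2.70 and 2.71 to 7.14 per 10000. It too was named after its values were seen. The ranges were parted only by 2.70 in control 1 (4 counts) and 2.71 in Miat 6-2 (9 counts). Mtdh libraries ran from 0 to 4.45. With no filter the Miat difference was log2 1.19 (edgeR adjusted p = 0.537). How many other low transcripts part in this way was not counted.

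Hosts were grouped by their symbol. The annotation puts 11 members in ribosomal protein genes, 4 in translation factor genes, 5 in snoRNA host genes, 14 in other genes and 2, Snora17 and Snora43, in none on their strand. Members in ribosomal protein genes summed to 67.9 ± 2.01 counts per 10000 outside Rn45s in controls, 62.8 ± 29.7 with Miat guides and 38.1 ± 15.4 in Mtdh libraries (SD, n = 4). Without Snora7a, those in ribosomal protein genes were at 17.2 ± 2.8, 34 ± 2.47 and 23.1 ± 16.4. Much of that sum was Snora62, at means of 6.47, 16.7 and 10.8, whose Miat difference did not pass (edgeR adjusted p = 0.134). In translation factor genes, the 3 members other than Snora81 were at 0.548 ± 0.876, 2.18 ± 2.77 and 4.23 ± 5.59. The 5 members in snoRNA host genes stood at 8.13 ± 3.67, 9.55 ± 3.09 and 8.77 ± 4.28, and those in other genes at 24.8 ± 4.20, 27.9 ± 8.14 and 31.6 ± 18.9. These sums are descriptions and were not tested. Snora24 had 4, 2, 11 and 5 counts in controls and its host Snhg8 had 5, 2, 11 and 7, and whether fragments were counted on both, or by strand, is not given in the sources used here.

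Other RNAs of the pathway were compared in the same fit. Terc, the telomerase RNA, which also carries an H/ACA domain, had 1 count in all 12 libraries. Of 9 Cajal body RNAs (Scarna), which guide modification of spliceosomal RNAs, 5 were tested. With Miat guides 1 was higher, Scarna2 (log2 2.47, edgeR adjusted p = 0.0374), and 1 lower, Scarna6 (-1.69, 0.00169), against 10.2% and 2.72% of all 147 transcripts. With Mtdh guides Scarna2 was higher (3.81, edgeR adjusted p = 0.00264) and Scarna17 lower (-2.72, 0.00171), against 8.16% and 2.72% of all. Between Mtdh and Miat guides 1 Scarna was higher and 1 lower, against 1.36% and 2.72% of all. With 5 tested, these counts do not set the Scarna RNAs apart from all transcripts.

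Of 77 C/D box snoRNAs (Snord), which guide ribose methylation of ribosomal RNA, 52 were tested. With Miat guides 3 were higher and 0 lower: Snord37 (log2 2.53, edgeR adjusted p = 0.0106), Snord67 (2.80, 0.0257) and Snord57 (1.58, 0.0374). Of all 147 transcripts, 10.2% were higher and 2.72% lower there. With Mtdh guides 0 of the 52 passed with edgeR, against 10.9% of all, and 6 had an unadjusted p under 0.05. Between Mtdh and Miat guides 0 were higher and 2 lower, Snord57 and Snord49a, against 1.36% and 2.72% of all. Rmrp, the RNA of an enzyme that cleaves the ribosomal precursor, was the 1 of 4 processing RNAs in the tables that could be tested. It stood at log2 -0.45 (SE 0.20, edgeR unadjusted p 0.0417, adjusted p = 0.175) with Miat and -0.26 (SE 0.20, edgeR unadjusted p 0.222, adjusted p = 0.446) with Mtdh guides. Of 12 snoRNA host transcripts 2 were tested and 0 passed in either comparison with control (unadjusted p under 0.05: 1 with Miat guides, 0 with Mtdh guides). Counts on Rn45s itself rose, by log2 1.35 (SE 0.22, edgeR adjusted p = 0.00132) with Miat and 1.20 (SE 0.22, edgeR adjusted p = 0.00171) with Mtdh guides. Whether these counts came from the precursor or from fragments of mature ribosomal RNA was not tested.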

How the data were processed

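Raw counts on 4529 rows of RefSeq non-coding transcripts were deposited for each library, per the file headers, with FPKM and TPM values that the authors deposited beside them and that were not used further. The submitters' processing notes name STAR, GRCm38 and mm10. The counter, the trimming and the handling of multiply mapped reads were not given in the sources used here. Identical repeated rows of a symbol (485, of which 172 had counts) were counted once. Transcripts of every class were tested on their counts with edgeR 4.0.16 under R 4.3.3, using filterByExpr with its defaults by group (count 10, total 15), TMM scaling (0.589 to 1.63), a quasi-likelihood fit over 12 libraries with 1 term per group, or per guide, and Benjamini-Hochberg adjustment over the 147 transcripts that passed, at 0.05, two-sided. Those held 97% to 98.6% of the counts of a library. The common dispersion was 0.249, and adjusted p-values printed with log2 changes are from edgeR. SE is the log2 change divided by the square root of F. Simulated counts at the real depths were used to test the script. Shares were compared between 4 libraries and 4 by exact permutation, two-sided. No 2 libraries of a guide agreed within sampling noise (chi-squared per degree of freedom 2.9 to 40).

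Positions and hosts came from RefSeq and GENCODE M21 on GRCm38, identities from edlib 1.3.9.post1, and figures from matplotlib 3.10.9 in Python 3.11.15. Members and lists were chosen with earlier results of these data known. Named members were, by rule, the tested ones with the highest share, those past 0.05 and the lowest p-values of each comparison. Alternatives were other scalings, filters and tools (DESeq2 1.42.0, limma-voom 3.58.1), repeated rows summed, 2 groups only, a replicate block, and each library or guide left out. The Rn45s covariate and shares without Snora7a were added after seeing the data. The sequence of 1 further member is not reported here.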

Additional observations from a re-analysis of the deposited data

Results flagged for a closer look

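Within groups of 4 libraries, 30 groups of levels were checked for a library that stood apart by Dixon's criterion (gap over range above 0.829), and 4 had one. Chance gives about 1 in 20. Snora81 was highest in Miat 96-2, at 346 counts per 10000 outside Rn45s, and that library also had the highest Rn45s share, 83.9%. Snora62 was highest among Miat libraries in 96-1, at 19.4. In controls, Snora74a was highest in control 2, at 9.19, and Snora75 in control 3, at 7.71. Snora7a differed between the guides of Miat by a test of the difference itself, with sgMiat-96 above sgMiat-6 by log2 2.53 (SE 0.52, edgeR adjusted p = 0.00248, and 0.00142 to 0.0522 with each Miat library left out). Both sgMiat-96 libraries, at 66.5 and 33.6 per 10000, were above both sgMiat-6 libraries, at 5.29 and 9.94.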

How the results depend on the processing

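Low counts limited the tests to 8 members. The Snora81 increase with Miat guides passed in 26 of 28 alternatives (log2 2.17 to 3.57 over all). It missed the threshold with the last number of the library name as a replicate block (2.94, edgeR adjusted p = 0.0892). It also missed when the fit had the Rn45s share as covariate (2.74, edgeR adjusted p = 0.682). Between Miat and Mtdh guides, the deviations of same-numbered libraries correlated at -0.33 to 0.26. That check left out the controls and had 2 libraries per guide, so it cannot settle whether the numbers mark a batch. The Snora81 increase is thus not free of this limit. The Snora81 difference between Mtdh and Miat passed in 28 of 28. Library totals in place of TMM moved the median of all transcripts to -0.66 (Miat) and -0.82 (Mtdh), with 6 higher and 27 lower, and 7 higher and 39 lower. Unless stated, the cause of a change was not tested.

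Members called are given with the calls over all transcripts under the same setting. For Miat against control they numbered 2 with no filter (14 higher and 3 lower of 1735 transcripts; Snora23, at 0 in controls, enters this test only through the other groups). They numbered 2 without sgMiat-96 (15 and 13 of 158), 0 with the block (0 and 1 of 147), 0 with the Rn45s covariate (0 and 0 of 147), and 1 to 2 with a library left out (2 without Miat 96-1, with 11 and 6 of 144). For Mtdh against control they numbered 1 with library totals (7 and 39 of 147) and 2 with no filter (9 and 1 of 1735). Those 2 were Snora7a and Snora23, and Snora23 again entered only through the groups where it is high, so its call is no support. The members called numbered 1 with 2 groups only (10 and 5 of 102), 1 without sgMiat-6 (15 and 9 of 157) and 1 without sgMiat-96 (14 and 11 of 158). With a library left out they numbered 0 to 1 (1 without Miat 6-1, with 14 and 4 of 149, and 1 without Miat 96-1, with 8 and 6 of 144). For Mtdh against Miat there were 2 without sgMiat-6 (1 and 3 of 157). The pooled Snora7a difference for Mtdh was -2.47 (edgeR adjusted p = 0.0091) with library totals, -2.08 (0.031) with no filter and -1.51 (0.0144) with 2 groups only.

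The Miat difference in the share outside Rn45s was 3.52 points out of Snora plus Snord counts (exact permutation p = 0.143), 0.00694 without Snora81 (p = 0.971), 0.226 without Snora81 and Snora7a (p = 0.0571), 2.55 without sgMiat-6 and 0.449 without sgMiat-96. For Mtdh it was 0.135 out of Snora plus Snord counts, 0.178 without Snora7a, 0.182 without both, and -0.363 to 0.0242 with a library left out. Between Mtdh and Miat it was -1.56 with repeated rows summed (p = 0.0571 by exact permutation), -3.38 out of Snora plus Snord counts, -0.182 without Snora81 and -0.0435 without both. Of all counts, the Miat difference was -0.208 without Snora81, 0.233 without Snora7a (exact permutation p = 0.0286), -0.0528 without both, 0.242 without sgMiat-6 and -0.0875 without sgMiat-96, and the difference between Mtdh and Miat 0.028 without both.

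Log2 changes that did not pass changed sign as follows, with adjusted p above 0.05 throughout in the tool of each fit (edgeR unless DESeq2 or limma-voom is named). With library totals, Miat gave -0.64 for Snora16a, -0.57 for Snora70 and -0.45 for Snora74a, Mtdh -0.3 for Snora16a and -0.26 for Snora74a, and Mtdh against Miat 0.09 for Snora31. With DESeq2 size factors Snora81 (Mtdh) was at 0.02 and Snora31 (Mtdh against Miat) at 0.01, and with DESeq2 at 0.03 and 0.0. With the block, Miat gave -0.19 for Snora16a and -0.03 for Snora70, and Mtdh against Miat -0.01 for Snora74a. With the covariate, Miat gave 0.92 for Snora31, -1.5 for Snora70 and 0.98 for Snora75, and Mtdh 0.59 for Snora31. With limma-voom Snora75 (Mtdh) was at -1.24 and Snora74a (Mtdh against Miat) at -0.02, and with 2 groups only Snora81 (Mtdh) at 0.23 and Snora74a (Mtdh against Miat) at -0.04. Snora74a (Mtdh against Miat) was at -0.03 with totals outside Rn45s, and also without sgMiat-6 and without sgMiat-96. Without sgMiat-96, Miat gave -0.05 for Snora16a and -0.49 for Snora70, and Mtdh against Miat 0.33 for Snora31 and 0.74 for Snora7a. Without sgMiat-6, Snora31 (Miat) was at 0.24. Without sgMtdh-1, Snora16a was at -0.05 (Miat), -1.15 (Mtdh) and -1.09 (Mtdh against Miat), and Snora74a at -0.43 (Mtdh) and -0.63 (Mtdh against Miat). Without sgMtdh-2, Snora81 (Mtdh) was at 0.12. With a library left out, Miat gave -0.13 to 0.46 for Snora16a, -0.58 to 0.06 for Snora31 and -0.11 to 0.48 for Snora70, Mtdh -0.23 to 1.14 for Snora75 and -0.44 to 0.28 for Snora81, and Mtdh against Miat -0.22 to 0.57 for Snora16a, -0.47 to 0.16 for Snora31 and -0.26 to 0.29 for Snora74a. By guide, Snora7a with sgMiat-96 ran from -0.81 to 0.33, and Snora81 from -0.3 to 0.37 with sgMtdh-1 and from -2.05 to 0.66 with sgMtdh-2.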
